A study of Mus musculus with 8 samples.

Results

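Mouse macrophages given interleukin-4 (IL-4) were compared with macrophages given lipopolysaccharide (LPS), the 2 stimuli that set the ends of the usual scale of macrophage activation. Bone marrow was cultured over 7 days in macrophage colony-stimulating factor (M-CSF) to give macrophages, which were then kept with IL-4 or LPS for 24 hours, with 2 samples and so 2 arrays for each stimulus. Their doses are not given in the sources used here. Unstimulated macrophages in control medium (2 arrays) and colony cells that grew from marrow on an endothelial layer for 7 days in HSC media (2 arrays) belong to the same series of 8 arrays. The colony cells enter no comparison, but they share in the estimate of the spread and in the choice of the genes tested, over which p-values were adjusted. All groups share a B6.Cg strain with the transgene CAG-DsRed*MST, which drives a red fluorescent protein from the CAG promoter, so the controls carry it too, and neither the age nor the sex of the mice is stated. Nothing in the labels tells if samples sharing a group were separate cultures or mice, so p-values measure only the spread between these samples, which may be technical. The comparison covers the 24840 genes, of 26504 genes tested in the series, that had a probe well above background on both IL-4 arrays or on both LPS arrays. The other 1664 genes passed only through the control or the colony arrays.

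IL-4 binds a receptor whose chains activate Janus kinases and the transcription factor STAT6, which turns on a programme known as alternative activation and linked to defence against worms and to tissue repair. LPS, a part of the outer membrane of Gram-negative bacteria, is sensed by Toll-like receptor 4 with CD14 and MD-2, and drives NF-kB and MAP kinase signalling as well as interferon beta, which acts back on the same cells. The arginine-using enzymes arginase 1 and inducible nitric oxide synthase are the classic pair of markers for these ends.

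A level below is the log2 signal of a gene's probe minus the 75th percentile of its array, and levels of different genes are not set against each other. A difference is the IL-4 mean minus the LPS mean on that scale, each over 2 arrays, so that a positive value is higher in IL-4. It is followed by its standard error from the limma model, which draws on all 8 arrays and on variances shared across genes. A gene is called at an adjusted p under 0.05 (limma, Benjamini-Hochberg over all 26504 genes). LPS replicate 2 stood apart, since 72.2% of its spots were well above background against 62.4% to 67.5% on the other 7 arrays, and 105 spots were uneven against 0 to 5. Across genes, Pearson r was 0.997 between the IL-4 arrays, 0.986 between the LPS arrays and 0.935 to 0.943 between arrays of different stimuli, although genes are not independent replicates. No spot was saturated. All 10 macrophage markers, among them Csf1r, the gene of the M-CSF receptor, and Adgre1, which codes for F4/80, were well above background on both arrays of each stimulus. Csf1r lay at 8.89 and 8.91 in IL-4 and 8.52 and 8.78 in LPS (0.25 ± 0.10, not called), and Adgre1 at 6.53 and 6.55 in IL-4 and 7.78 and 8.00 in LPS (-1.35 ± 0.09). Of 6 fibroblast markers, 2 were so on both IL-4 arrays and 5 on both LPS arrays, with median levels of -7.03 and -6.11 in IL-4 and -4.69 and -4.40 in LPS, and their part in the results was not tested. Of 10 neutrophil markers, 9 and 8 were well above background, at median levels of -1.21 and -1.22 in IL-4 and -2.32 and -1.58 in LPS. These markers went both ways: 4 were higher in IL-4, led by Mpo (3.28 ± 0.10), and 2 in LPS, Camp (-2.31 ± 0.12) and Ly6g, at 1.14 and 1.07 in LPS against -5.96 and -5.44 in IL-4, where it was not well above background on both arrays. Their part in the results was not tested. A bulk sample cannot tell fewer cells of a kind from less RNA per cell.

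IL-4 and LPS macrophages differed at 13948 genes, 52.6% of those tested. Of these, 6832 (25.8% of all genes) were higher in IL-4 and 7116 (26.8%) higher in LPS. Within the 24840 genes seen with either stimulus, 13749 (55.4%) were called, 6760 (27.2%) higher in IL-4 and 6989 (28.1%) higher in LPS. Without LPS replicate 2, 12530 genes were called. With a difference of at least 2-fold, 2551 genes (9.62%) were higher in IL-4 and 3150 (11.9%) in LPS. At 4-fold or more the counts were 913 (3.44%) and 1380 (5.21%), and at 16-fold or more 187 and 342. Of these 187 and 342 genes, 106 and 191 were well above background on all 4 IL-4 and LPS arrays. The sizes of the others rest on dim signals. Each comparison with the shared control gave 5049 called genes (19%) for IL-4 and 14492 (54.7%) for LPS. Both arrays of one stimulus lay outside both of the other for 76.7% of genes with complete values, so a gap between the groups alone says little. For 14675 genes, 55.4%, the 95% interval of the difference lay within 2-fold either way. The median difference over all genes was -0.06 and moved to 0.15 when arrays were centred on their medians and to 0.18 in the deposited value table, which raised the share of calls higher in IL-4 from 49.0% to 63.8% and 66.1%. The medians of gene lists below are therefore given relative to the median of all genes. A normexp background correction, which draws dim signals together, lowered the count at 2-fold or more from 5701 to 3584, and of the 2293 genes called at 4-fold or more 2288 kept their direction and 2043 were called the same way.

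**Figure D1:**
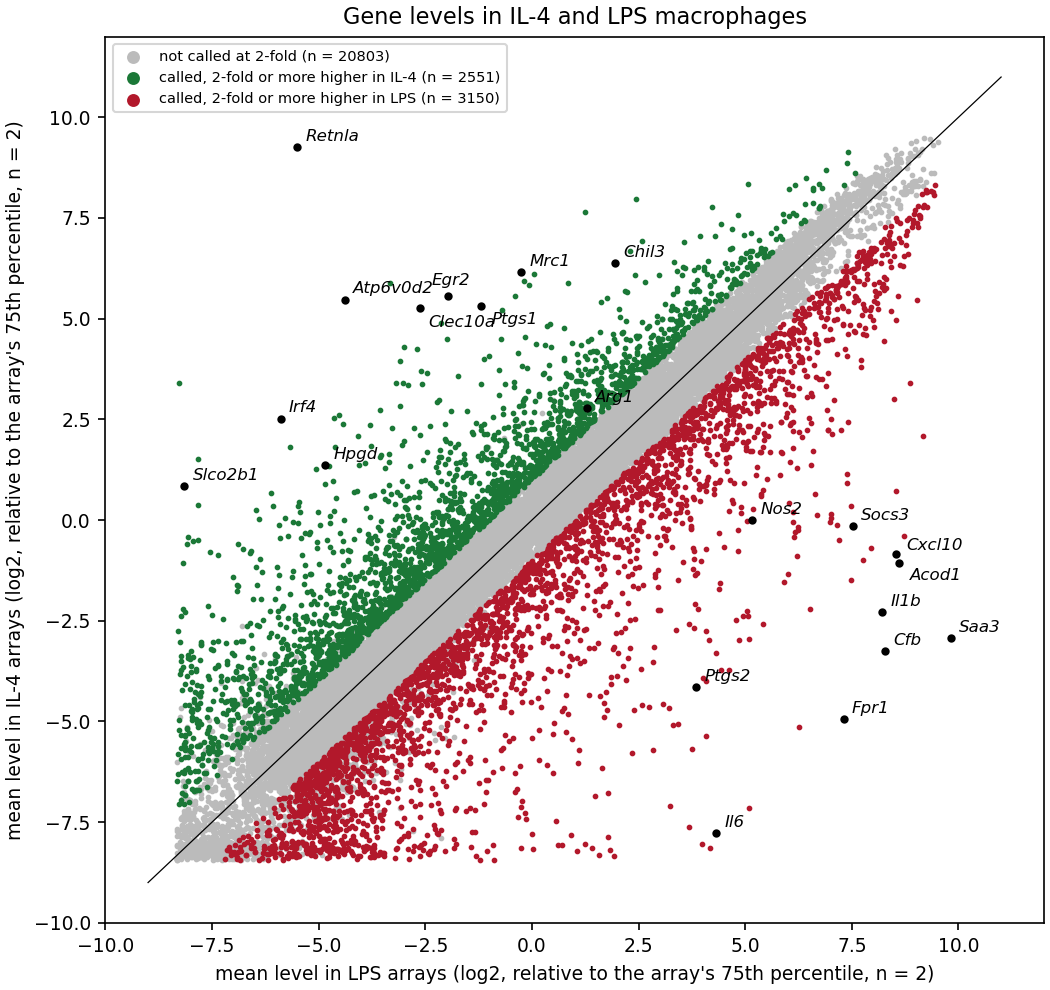
Mean level of each of the 26504 genes in LPS macrophages (horizontal axis) and IL-4 macrophages (vertical axis), log2 relative to the 75th percentile of the array, 2 arrays per group, with genes called at 2-fold or more in green (2551, higher in IL-4) and red (3150, higher in LPS). Retnla lies at the upper left and Saa3, Fpr1 and Il6 at the lower right, while Arg1 lies near the diagonal. Levels near -8 are not well above background, so distances from there are not measured folds.

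Retnla, which codes for the secreted resistin-like molecule alpha (FIZZ1), gave the widest gap of any gene named here. Its probe lies at chr16:48844447-48844506 (build mm9, for which no annotation of exons was at hand). Its level was 9.20 and 9.32 on the IL-4 arrays, -6.37 and -4.64 on the LPS arrays, and -8.06 and -7.95 on the control arrays. It was thus high in IL-4, above background on LPS replicate 2 only, and not well above background in control. The difference was 14.77 ± 0.54 (adjusted p = 1.2e-05, limma), its size resting on a dim LPS signal. Rnase2a, an eosinophil-associated ribonuclease gene, had levels of 5.86 and 5.91 in IL-4, -3.26 and -3.40 in LPS and -3.25 and -3.09 in control. Only IL-4 stood out for this gene, by 9.21 ± 0.09 over LPS (adjusted p = 5.1e-07, limma), and its close relative Ear10 differed by 7.31 ± 0.07. Probes of such relatives can bind RNA of more than 1 gene.

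Atp6v0d2, Clec10a, Mrc1 and Clec7a were far higher in IL-4 than in LPS, with the wider gap to control on the side of LPS. Atp6v0d2 codes for a subunit of the lysosomal proton pump that is also known from osteoclast fusion, and its probe lies at chr4:19805367-19805426 (mm9). Its levels were 5.47 and 5.48 in IL-4, -4.42 and -4.36 in LPS and 2.97 and 2.76 in control, a 933-fold difference (9.87 ± 0.09, adjusted p = 5.1e-07, limma). It rose with IL-4 by 2.61 ± 0.09 and fell with LPS by 7.25 on the log2 scale, each against control. Clec10a, a galactose-binding lectin gene, had levels of 5.23 and 5.28 in IL-4, -2.67 and -2.57 in LPS and 4.77 and 4.64 in control, so the difference of 7.88 ± 0.09 lay almost wholly between LPS and control. The mannose receptor gene Mrc1 had the same layout, at 6.13 and 6.17 in IL-4, -0.37 and -0.12 in LPS and 5.27 and 5.35 in control (difference 6.401 ± 0.10). The beta-glucan receptor gene Clec7a lay at 7.65 and 7.64 in IL-4, 1.26 and 1.23 in LPS and 6.52 and 6.35 in control (difference 6.399 ± 0.08). The other called genes with the highest differences, all well above background on all 4 arrays, were Egr2, Fn1, which codes for fibronectin, the ADP receptor gene P2ry1, the fusion receptor gene Dcstamp, Flt1, which codes for VEGF receptor 1, Itgb3, Ptgs1 and Ier5l, from 7.54 ± 0.10 for Egr2 down to 6.50 ± 0.23 for Ier5l. The integrin gene Itgb3 had probes that disagreed: the one used gave 6.59 and another was called at -1.83.

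At the other end stood genes of the acute phase, of chemotaxis and of interleukin-1. Saa3, a serum amyloid A gene (probe at chr7:53970389-53970448, mm9), had levels of 9.59 and 10.04 in LPS, -3.09 and -2.77 in IL-4 and -0.60 and -0.86 in control, a 6869-fold difference between the stimuli (-12.75 ± 0.21, adjusted p = 1.1e-06, limma). The formyl peptide receptor gene Fpr1 lay at 7.20 and 7.41 in LPS, -5.12 and -4.75 in IL-4 and -1.56 and -1.58 in control (-12.24 ± 0.18), and its neighbour in function Fpr2 differed by -11.40 ± 0.10. Cfb, which codes for complement factor B, differed by -11.54 ± 0.10. These genes were lower in IL-4 than in control as well, Saa3 by 2.20 ± 0.21 and Fpr1 by 3.37 ± 0.18, so the stimuli lay on opposite sides of the unstimulated cells. Il1b, which codes for interleukin-1 beta, differed by -10.51 ± 0.18, Acod1 by -9.68 ± 0.11, U90926 by -9.46 ± 0.14, the activation marker gene Cd69 by -9.43 ± 0.08, Cxcl10 by -9.39 ± 0.12, the siderophore-binding Lcn2 by -9.12 ± 0.11, Oasl1 by -8.96 ± 0.09 and the haptoglobin gene Hp by -8.75 ± 0.10. With normexp the 24 genes of these extremes kept their direction, with sizes of 5.36 to 11.81 in place of 6.50 to 12.75.

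Some genes were seen with 1 stimulus only. By any of their probes, 333 genes were well above background on both IL-4 arrays and on neither LPS array, and 761 on both LPS arrays and neither IL-4 array. Without LPS replicate 2 the first count was 657, and without LPS replicate 1 the counts were 575 and 1149. With an array left out the rule asks for 1 array of that stimulus in place of both. For these genes only a lower bound of the fold is given, set against the dimmest signal well above background. In IL-4 the highest bounds were at least 125.7-fold for the anion transporter gene Slco2b1, 106.5-fold for Gm5086, 90.8-fold for Hebp2, 65.5-fold for Lrfn4, 52.2-fold for Rtn4rl1, 49.6-fold for the lipid receptor gene Gpr34, 49.0-fold for the retinol carrier gene Rbp4 and 42.3-fold for the amino acid transporter gene Slc36a2. Of these, Rbp4 was not well above background in control either, at -7.96 and -6.85 against -0.50 and -0.54 in IL-4, while Slco2b1 lay at 1.55 and 1.42 in control and 0.83 and 0.85 in IL-4. In LPS the bounds were at least 2323-fold for the schlafen gene Slfn4, 1354-fold for Il6, 1226-fold for Il1a, 1082-fold for Cxcl3, 873.6-fold for Klra2, 258.9-fold for Cxcl1, 240.9-fold for Shisa3 and 236.7-fold for Antxr1. These bounds depend on how the background was subtracted and can fail under another correction.

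Of 20 IL-4 effector genes tested, 17 were higher in IL-4, against 25.8% of all genes, and 1 was higher in LPS. The median member lay 4.37 above the median gene, and without LPS replicate 2 the counts were 18 and 1. For the lists below a value without an array follows where a count moved by more than 2 without LPS replicate 2, or by more than 1.5 times without any array. Each list count is to be read against the 25.8% of all genes higher in IL-4 and the 26.8% higher in LPS. The chitinase-like gene Chil3 (Ym1) had levels of 6.34 and 6.41 in IL-4, 1.90 and 1.98 in LPS and 2.50 and 2.39 in control. It was high in IL-4 alone (4.43 ± 0.08, adjusted p = 1.4e-06, limma), and Chil4, whose sequence is close to it, differed by 4.19 ± 0.14. Not every member parted the stimuli. The eosinophil-attracting chemokine gene Ccl24 lay at 3.31 and 3.25 in IL-4 and 2.47 and 2.53 in LPS, both far above -1.09 and -1.11 in control, so that the stimuli differed by only 0.78 ± 0.07. Ccl17 had levels of -1.62 and -1.73 in IL-4 and -1.86 and -1.74 in LPS against -4.94 and -4.46 in control. Its difference of 0.13 ± 0.21 missed the threshold, with a 95% interval of -0.40 to 0.65. Ccl22, a ligand of the same receptor, was the member higher in LPS, by at least 4.02-fold over dim IL-4 arrays, and Cdh1, which codes for E-cadherin, was well above background on 1 LPS array and was not called. The exceptions of a list, here and below, were singled out after their values were seen.

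The promoters of 2 members with wide gaps are printed because each holds the palindrome of TTC and GAA spaced by any 4 bases, the kind of site STAT6 is known to bind. They are the 250 bases before the start of transcription in RefSeq, build GRCm38.p6, at chr16:48842359-48842608, plus strand for Retnla and chr6:129472780-129473029, minus strand for Clec7a, 5′ to 3′ on the strand of the gene, with the match in capitals.
Retnla: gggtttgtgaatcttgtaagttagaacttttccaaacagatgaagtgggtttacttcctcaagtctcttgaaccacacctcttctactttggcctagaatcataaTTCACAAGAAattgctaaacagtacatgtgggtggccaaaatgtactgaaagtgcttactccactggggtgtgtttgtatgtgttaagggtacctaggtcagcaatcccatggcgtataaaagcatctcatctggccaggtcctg
Clec7a: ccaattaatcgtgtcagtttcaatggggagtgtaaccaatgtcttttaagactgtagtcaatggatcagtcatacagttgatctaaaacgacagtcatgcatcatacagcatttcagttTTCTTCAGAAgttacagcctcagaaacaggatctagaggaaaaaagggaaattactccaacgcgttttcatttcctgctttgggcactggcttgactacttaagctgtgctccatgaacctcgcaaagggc
In Retnla the match began 145 bases before the start, in Clec7a 131 bases. Across the list, 6 of 17 promoter windows (35.3%) held this motif. The 17 windows came from 14 genes. Clec7a counted with 2 overlapping windows, which hold the same match 131 and 125 bases before their starts. The share was 4.9997% for windows of the genes tested and 5.85% for all promoters of that length in the table. Over the much larger set of genes called at 4-fold or more higher in IL-4, the share was 6.28%, and for those higher in LPS 5.56%. Of 20 windows of the inflammatory cytokine list, from 16 genes, 7 held the motif too. The printed promoters were chosen after the values were seen, and a match describes the letters in the window only.

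Among 14 transcription factors linked to IL-4, 10 were higher in IL-4 and 2 in LPS (25.8% and 26.8% of all genes), with a median 2.28 above the median gene and the same counts without LPS replicate 2. Irf4, which works downstream of STAT6 in alternative activation, had levels of 2.60 and 2.44 in IL-4, -5.68 and -6.11 in LPS and -0.56 and -0.37 in control. It rose with IL-4 and fell with LPS against control, to a level seen above background on LPS replicate 1 only, and differed by 8.41 ± 0.16 (adjusted p = 1.6e-06, limma). The zinc finger factor gene Egr2 lay at 5.52 and 5.62 in IL-4, -1.97 and -1.97 in LPS and 1.66 and 1.62 in control, again to both sides of the unstimulated level. The lipid-sensing receptor gene Pparg lay at 5.23 and 5.23 in IL-4, -0.85 and -0.57 in LPS and 4.14 and 4.19 in control, so most of its difference of 5.94 ± 0.10 was on the LPS side. Batf3 was higher in IL-4 by 4.44 ± 0.11. The 2 members higher in LPS were Cebpb, by 1.62 ± 0.13, and Maf, by 1.42 ± 0.08. Kdm6b, which codes for a histone H3K27 demethylase, had levels of 0.54 and 0.54 in IL-4 and 0.53 and 0.55 in LPS, both called above -0.25 and -0.23 in control, and did not part the stimuli (95% interval -0.16 to 0.15).

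Genes of the IL-4 receptor and of wider signalling families, which also serve other cytokines, were more often higher in LPS. Of 23 genes of the IL-4 receptor, Janus kinases, STATs and SOCS inhibitors, 6 were higher in IL-4 and 14 in LPS, against 25.8% and 26.8% of all genes, with the median 0.92 below the median gene. Stat6 had levels of 3.21 and 3.18 in IL-4 and 3.37 and 3.22 in LPS, groups that lay close together (-0.10 ± 0.08, not called). Il4ra, which codes for the ligand-binding chain, was lower in IL-4 than in LPS by 1.85 ± 0.08, at 0.42 and 0.32 against 2.18 and 2.26, with control between at 1.07 and 1.16. The feedback inhibitors split by stimulus. Socs2 lay at 0.66 and 0.60 in IL-4 and -3.93 and -3.47 in LPS (4.33 ± 0.15), and Cish at 2.28 and 2.40 in IL-4 and -0.44 and -0.37 in LPS (2.75 ± 0.11). Socs3 lay at 7.43 and 7.60 in LPS and -0.18 and -0.12 in IL-4 (-7.67 ± 0.08, adjusted p = 5.1e-07, limma). Socs1 was high with both, at 3.24 and 3.45 in IL-4 and 4.27 and 4.38 in LPS against -0.61 and -0.87 in control. Stat2, a factor of interferon signalling, was higher in LPS by 2.91 ± 0.09.

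**Figure D2:**
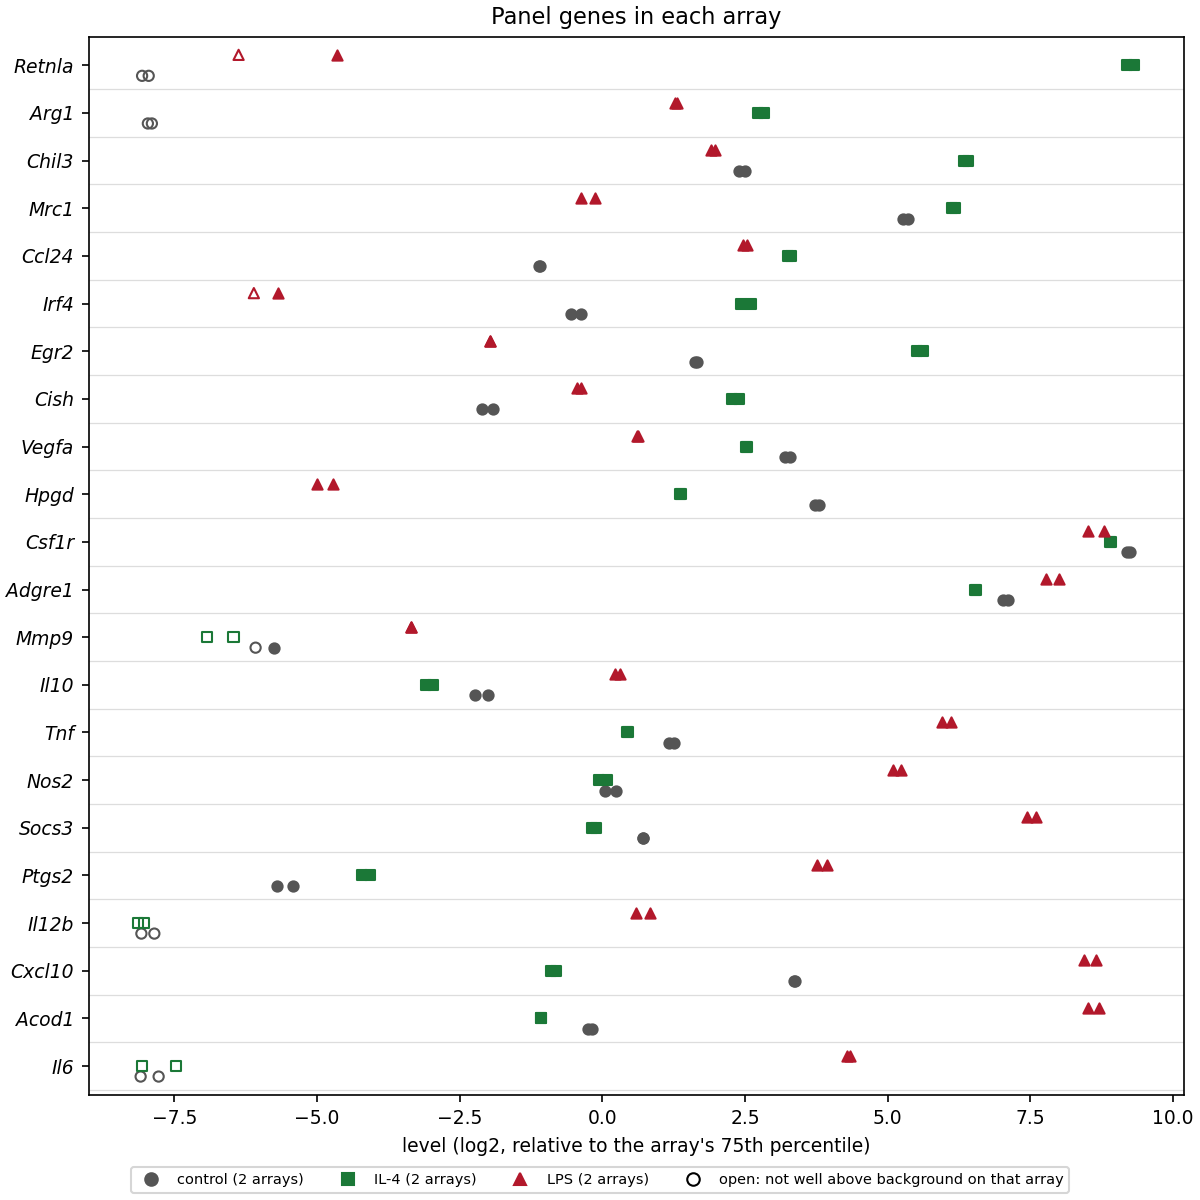
Level of each panel gene on each control (grey circles), IL-4 (green squares) and LPS (red triangles) array, 2 arrays per group, log2 relative to the 75th percentile of the array; open symbols are arrays on which the probe was not well above background. The gap between the stimuli is wide toward IL-4 for Retnla, Irf4 and Egr2 and toward LPS for Il6, Acod1 and Cxcl10. Arg1 is far above control with both stimuli.

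Of 22 cytokine genes tested, 19 were higher in LPS and 0 in IL-4, against 26.8% and 25.8% of all genes, with the same counts without LPS replicate 2 and a median 5.17 below the median gene. Il6 had levels of 4.29 and 4.34 in LPS, -7.47 and -8.06 in IL-4 and -8.09 and -7.77 in control. It was well above background in LPS alone. Il12b, which codes for the shared chain of interleukins 12 and 23, was seen in LPS alone too, at 0.59 and 0.83, at least 111.8-fold over IL-4. Tnf lay at 6.11 and 5.95 in LPS, 0.44 and 0.43 in IL-4 and 1.26 and 1.17 in control (-5.60 ± 0.09), and the anti-inflammatory Il10 at 0.23 and 0.32 in LPS and -3.08 and -2.96 in IL-4 (-3.29 ± 0.15, adjusted p = 2.5e-05, limma). Ifnb1, which codes for interferon beta, was at least 69.4-fold higher in LPS. The 3 members not called were Il27 (-0.15 ± 0.10), Lif, and Il33, which was not well above background with either stimulus. Wherever limma called 0 members of a list in a direction between IL-4 and LPS, here and below, the count in that direction at an unadjusted p under 0.05 was 0 as well. With genes seen in 1 stimulus only at their bounds, the median difference of the list was -3.93 in place of -5.23, and with normexp it was -2.78.

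Among 12 CXC chemokine genes, 10 were higher in LPS and 0 in IL-4 (1 in IL-4 without LPS replicate 2), against 26.8% and 25.8% of all genes. The neutrophil attractants Cxcl1, Cxcl2 and Cxcl3 and the interferon-induced Cxcl10 led. Cxcl3 lay at 3.92 and 4.05 in LPS and at -8.12 and -7.94 in IL-4, where it was not well above background. Cxcl10 lay at 8.43 and 8.64 in LPS, -0.82 and -0.89 in IL-4 and 3.36 and 3.38 in control, on opposite sides of control. Of 16 CC chemokine genes, 10 were higher in LPS and 2 in IL-4, against the same shares. Ccl5 differed by -7.09 ± 0.16, Ccl12 by -6.47 ± 0.09 and Ccl3 by -5.02 ± 0.08. The monocyte attractant gene Ccl2 lay at 8.40 and 8.58 in LPS, 3.01 and 2.999 in IL-4 and 0.48 and 0.31 in control, so it rose with both stimuli and parted them by 5.48 on the LPS side. Ccl6 and Ccl24 were the 2 higher in IL-4, Ccl6 by 3.66 ± 0.07 at 6.08 and 6.08 against 2.45 and 2.39. Receptors for chemoattractants went both ways, with 6 of 19 higher in IL-4 and 10 in LPS: Cx3cr1 lay at -3.95 and -3.84 in IL-4 against 1.76 and 1.93 in LPS and 1.39 and 1.47 in control, so that it fell with IL-4 by 5.33 on the log2 scale, and Ccr7 was higher in LPS by 4.55 ± 0.10. Cxcr4, Gpr183 and Ccr2 were higher in IL-4, by 3.59 ± 0.07, 3.57 ± 0.23 and 2.63 ± 0.10.

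The promoters of Il6, Cxcl1 and Cxcl3 are printed because these genes were seen in LPS and not in IL-4 and each window holds the kappa-B motif (GGG, any 2 bases, then TTTCC, on either strand), a site type of NF-kB. They lie at chr5:30012864-30013113, plus strand for Il6, chr5:90890995-90891244, plus strand for Cxcl1 and chr5:90785851-90786100, plus strand for Cxcl3 (RefSeq, GRCm38.p6), with the matches in capitals.
Il6: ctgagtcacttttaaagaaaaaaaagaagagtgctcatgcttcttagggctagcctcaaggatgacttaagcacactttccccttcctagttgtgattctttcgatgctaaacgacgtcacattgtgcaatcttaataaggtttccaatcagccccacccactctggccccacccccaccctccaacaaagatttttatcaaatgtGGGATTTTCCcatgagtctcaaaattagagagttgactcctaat
Cxcl1: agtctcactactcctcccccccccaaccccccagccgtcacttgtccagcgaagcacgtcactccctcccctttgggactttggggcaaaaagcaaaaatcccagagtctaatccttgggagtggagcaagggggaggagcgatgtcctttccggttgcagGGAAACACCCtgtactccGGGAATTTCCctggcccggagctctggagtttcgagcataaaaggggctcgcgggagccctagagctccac
Cxcl3: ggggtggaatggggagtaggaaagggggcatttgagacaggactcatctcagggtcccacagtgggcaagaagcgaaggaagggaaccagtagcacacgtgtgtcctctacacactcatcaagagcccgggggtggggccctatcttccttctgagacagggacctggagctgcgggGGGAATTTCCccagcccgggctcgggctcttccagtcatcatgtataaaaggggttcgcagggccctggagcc
The match began 44 bases before the start in Il6, 89 and 71 bases in Cxcl1, and 73 bases in Cxcl3. The motif was in 3.08% of windows of genes called at 4-fold or more higher in LPS, 1.43% of those higher in IL-4, 1.502% of windows of the genes tested and 1.41% of all promoters of that length. In the cytokine list 3 of 20 windows (16 genes) held it, and in the IL-4 effector list 0 of 17 (14 genes).

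NF-kB subunits, inhibitors and targets were higher in LPS in 16 of 19 cases and in IL-4 in 0 (26.8% and 25.8% of all genes), also without LPS replicate 2. The signalling adaptor gene Traf1 led, at 6.07 and 6.23 in LPS against -0.49 and -0.34 in IL-4 (-6.56 ± 0.11), followed by the IkB family genes Nfkbiz (-4.32 ± 0.16) and Nfkbia (-3.03 ± 0.11) and by Sod2, which codes for mitochondrial superoxide dismutase (-3.57 ± 0.12). The 3 not called were Nfkbid, Rel and Rela. Rela, the main activating subunit, had levels of 5.60 and 5.57 in IL-4 and 5.62 and 5.69 in LPS (95% interval -0.24 to 0.09). Of 21 Toll-like receptors and adaptors, 13 were higher in LPS and 5 in IL-4 (10 and 3 without LPS replicate 2, and 3 in IL-4 without either IL-4 array), against the same shares. The LPS receptor gene Tlr4 itself was higher in IL-4, by 1.20 ± 0.08, at 3.09 and 3.15 against 1.86 and 1.99. Its co-receptor gene Cd14 was lower, at 3.71 and 3.88 in IL-4 and 7.56 and 7.88 in LPS with control at 6.12 and 6.01, a fall with IL-4 and a rise with LPS. The signalling brake Irak3 differed by -4.72 ± 0.08, Tlr3 by -2.76 ± 0.09 and the adaptor gene Myd88 by -2.44 ± 0.07.

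All 30 interferon response genes were higher in LPS (26.8% of all genes), each by at least 2-fold, also without LPS replicate 2, with a median 4.23 below the median gene. Ifit1, which codes for a protein that binds viral RNA caps, had levels of 5.85 and 6.14 in LPS, -1.38 and -1.28 in IL-4 and 1.72 and 1.62 in control (-7.33 ± 0.14, adjusted p = 1.6e-06, limma). Oasl1 lay at 7.37 and 7.58 in LPS, -1.48 and -1.48 in IL-4 and 2.04 and 1.98 in control, and Ifi44 differed by -7.98 ± 0.11. For these genes control sat between the stimuli. Against control, 29 of the 30 were lower in IL-4 and 30 higher in LPS, where 9.18% and 28.9% of all genes were called in those directions. Both counts use the same control arrays. Of 16 interferon-inducible GTPase genes, whose products act on vacuoles that hold microbes, 15 were higher in LPS and 0 in IL-4. Gbp4 differed by -7.13 ± 0.08, Tgtp1 by -5.44 ± 0.19, Gbp5 by -5.15 ± 0.13 and Gbp6 by -4.78 ± 0.12, and Gbp8 was the 1 not called (-0.17 ± 0.15). Among the interferon regulatory factors, Irf7 lay at 6.79 and 6.56 in LPS and 0.13 and 0.11 in IL-4 (-6.56 ± 0.11), at the other end from Irf4. Irf1 rose with both stimuli, to 5.40 and 5.47 in IL-4 and 5.43 and 5.46 in LPS from 4.84 and 4.78, and did not part them (95% interval -0.17 to 0.16).

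The promoters of 2 interferon response genes are printed for the ISRE motif (GAAA, any 2 bases, then GAAA, on either strand), a site type known from interferon-induced genes. They lie at chr5:92348890-92349139, minus strand for Cxcl10 and chr19:34640639-34640888, plus strand for Ifit1 (RefSeq, GRCm38.p6), with the matches in capitals.
Cxcl10: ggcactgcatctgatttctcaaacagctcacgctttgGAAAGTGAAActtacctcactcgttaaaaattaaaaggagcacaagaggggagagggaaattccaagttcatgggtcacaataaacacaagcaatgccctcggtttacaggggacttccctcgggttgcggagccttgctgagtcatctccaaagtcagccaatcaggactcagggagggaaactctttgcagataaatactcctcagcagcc
Ifit1: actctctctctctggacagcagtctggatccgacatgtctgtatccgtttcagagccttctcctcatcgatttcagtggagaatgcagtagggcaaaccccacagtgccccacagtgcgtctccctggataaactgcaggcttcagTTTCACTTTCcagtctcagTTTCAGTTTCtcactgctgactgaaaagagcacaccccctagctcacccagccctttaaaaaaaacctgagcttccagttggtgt
The match began 213 bases before the start in Cxcl10, and 104 and 85 bases before it in Ifit1. This motif was in 10 of 26 windows of the interferon response list, which came from 21 genes. It was in 8.54% of windows of genes called at 4-fold or more higher in LPS and in 1.71% of those higher in IL-4. Of windows of the genes tested 2.86% held it, and of all promoters 2.98%. The GAS motif TTCNNNGAA, 1 base shorter in its spacing than the motif in Retnla, was in 8.84% and 6.42% of windows of the genes higher in LPS and in IL-4 by 4-fold or more, against 6.24% of those tested and 7.02% of all promoters.

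Arginine metabolism split by enzyme and not by pathway. Of 20 genes, 8 were higher in IL-4 and 8 in LPS (25.8% and 26.8% of all genes). Nos2, the gene of inducible nitric oxide synthase, lay at 5.10 and 5.24 in LPS, -0.07 and 0.08 in IL-4 and 0.24 and 0.04 in control, high in LPS alone (-5.16 ± 0.10, adjusted p = 1.7e-06, limma). Arg1, which codes for arginase 1 (probe at chr10:24636194-24636253, mm9), lay at 2.73 and 2.83 in IL-4, 1.31 and 1.27 in LPS and -7.96 and -7.89 in control, where it was not well above background. Both stimuli thus held Arg1 far above control, by at least 448.5-fold and 159.8-fold, and parted it by 2.81-fold (1.49 ± 0.07, adjusted p = 3.5e-05, limma). The arginine transporter gene Slc7a2 rose with both as well, to -0.42 and -0.40 in IL-4 and 2.84 and 3.03 in LPS from -5.25 and -4.94, and was higher in LPS by 3.35 ± 0.12. The enzymes that rebuild arginine and supply the cofactor of nitric oxide synthase were higher in LPS: Ass1, for argininosuccinate synthase, by 4.67 ± 0.10 and Gch1, for GTP cyclohydrolase, by 2.76 ± 0.09. So was Pycr1, an enzyme of proline synthesis, by 2.96 ± 0.25. On the polyamine side, Odc1, for ornithine decarboxylase, was higher in IL-4 by 0.60 ± 0.08 and Sat1, which acetylates polyamines, by 2.40 ± 0.14.

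The cyclooxygenase genes went opposite ways. Ptgs1, for the constitutive cyclooxygenase, lay at 5.28 and 5.37 in IL-4, -1.30 and -1.10 in LPS and 3.23 and 3.17 in control (6.53 ± 0.09). Ptgs2, for the inducible one, lay at -4.08 and -4.21 in IL-4, 3.76 and 3.94 in LPS and -5.71 and -5.43 in control (-7.995 ± 0.12, adjusted p = 9.6e-07, limma). Each isoform was thus far higher with 1 stimulus, and Ptgs2 rose from control with both. Hpgd, whose enzyme degrades prostaglandins, lay at 1.38 and 1.35 in IL-4, -4.99 and -4.72 in LPS and 3.80 and 3.73 in control, lower than control with both and by far the most with LPS (6.22 ± 0.16 between stimuli). Downstream, Ptges, for inducible prostaglandin E synthase, was higher in LPS by 1.90 ± 0.10 and Tbxas1, for thromboxane synthase, higher in IL-4 by 1.26 ± 0.07. Of all 21 genes 11 were higher in IL-4 and 8 in LPS (25.8% and 26.8% of all genes), the latter 6 without LPS replicate 2 and 5 when arrays were centred on their medians.

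**Figure D3:**
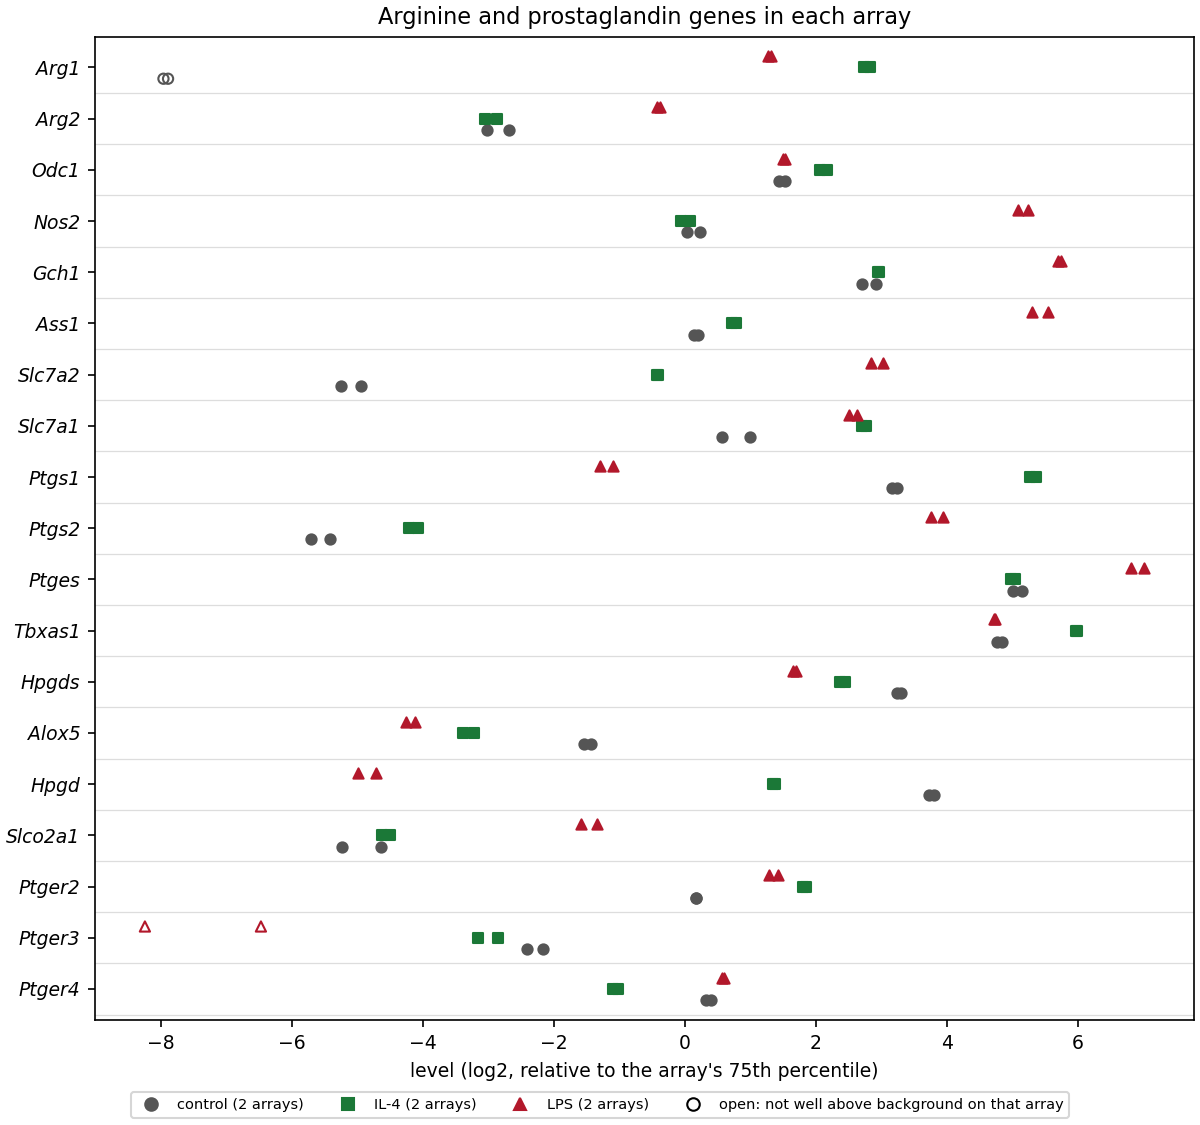
Levels of arginine and prostaglandin pathway genes on each control (grey circles), IL-4 (green squares) and LPS (red triangles) array, 2 arrays per group, log2 relative to the 75th percentile of the array; open symbols are not well above background. Ptgs1 and Ptgs2 lie at opposite ends by stimulus, while Arg1 and Slc7a2 are above control with both.

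Antigen presentation divided by class. Of 13 MHC class II genes, 11 were higher in IL-4 and 2 in LPS (25.8% and 26.8% of all genes), with a median 1.69 above the median gene, and the same counts without LPS replicate 2. H2-Aa lay at 4.38 and 4.29 in IL-4, 1.14 and 1.16 in LPS and 2.96 and 2.95 in control (3.19 ± 0.11), and H2-Eb1 differed by 3.11 ± 0.08, H2-DMa by 2.65 ± 0.07 and Ciita, the master regulator of the class, by 3.50 ± 0.46. The 2 exceptions, H2-Ob and H2-Oa, code for the chains of H2-O, an inhibitor of peptide loading, and were higher in LPS by 2.18 ± 0.12 and 1.58 ± 0.15. All 15 class I and immunoproteasome genes were higher in LPS (12 when centred on medians or in the deposited table). The peptide transporter gene Tap1 was higher there by 2.93 ± 0.15. The regulator gene Nlrc5 was so by 2.46 ± 0.08 and the proteasome subunit gene Psmb8 by 2.13 ± 0.08. Costimulatory and checkpoint ligands divided 5 to 7 of 13. Cd83 (3.75 ± 0.08) was higher in IL-4, Icosl (-4.99 ± 0.09) and Lgals9 (-3.60 ± 0.09) in LPS, and Slamf1, above background on 1 IL-4 array, was higher in LPS by 5.81 ± 0.60. Cd86 lay at 1.51 and 1.56 in IL-4 and 1.47 and 1.503 in LPS, both called below 2.37 and 2.26 in control, and did not part the stimuli.

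Surface receptors for microbes and debris moved in both directions within a family. Of 20 C-type lectin receptor genes, 8 were higher in IL-4 and 8 in LPS (25.8% and 26.8% of all genes). Clec4e (Mincle), a sensor of mycobacterial glycolipid, lay at 7.42 and 7.52 in LPS, 0.32 and 0.37 in IL-4 and 2.48 and 2.58 in control (-7.13 ± 0.07), the mirror of Clec10a, Mrc1 and Clec7a. Among 13 scavenger receptors 6 were higher in IL-4 and 5 in LPS (3 in LPS without LPS replicate 2 or either IL-4 array). Marco lay at 7.86 and 8.02 in LPS, -0.67 and -0.69 in IL-4 and 0.90 and 0.94 in control (-8.62 ± 0.08). Stab2, for a hyaluronan receptor, lay at 1.24 and 1.29 in IL-4, -4.95 and -5.17 in LPS and 1.13 and 1.00 in control (6.32 ± 0.11), and Cd36 was higher in IL-4 by 3.27 ± 0.16. Genes for the uptake of dying cells were higher in IL-4 in 12 of 17 cases and in LPS in 3 (1 when centred on medians), with Pros1 (3.11 ± 0.08), Gas6 (2.78 ± 0.08) and Mfge8 (2.25 ± 0.08), 3 bridging proteins between dying cells and phagocyte, beside Itgb3. Gas6 was lower than control with both stimuli, at 6.13 and 6.22 in IL-4 and 3.34 and 3.45 in LPS from 7.49 and 7.60. Of 15 complement genes 11 were higher in LPS and 4 in IL-4, against the same shares of all genes. Cfb, for the activating factor B, was among those higher in LPS.

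Acute-phase and antimicrobial genes were higher in LPS in 12 of 16 cases and in IL-4 in 0 (26.8% and 25.8% of all genes). Matrix proteases and their inhibitors divided 6 to 9 of 20. Mmp14, for a membrane-bound metalloproteinase, lay at 4.18 and 3.96 in LPS and -3.88 and -4.10 in IL-4 (-8.06 ± 0.16), Serpinb2, an inhibitor of urokinase, was at least 236.1-fold higher in LPS, and the inhibitor gene Timp2 lay at 6.70 and 6.67 in IL-4 and 2.18 and 2.43 in LPS (4.38 ± 0.16). Mmp9 was at least 6.71-fold higher in LPS. Of 25 growth and angiogenic factors 10 were higher in IL-4 and 5 in LPS (8 in LPS without LPS replicate 1). Igf1 was higher in IL-4 by 3.105 ± 0.07 and Pdgfa by 2.71 ± 0.06, and Edn1, for endothelin 1, was higher in LPS by 4.29 ± 0.10. Vegfa was lower than control with both stimuli, at 2.52 and 2.54 in IL-4 and 0.63 and 0.61 in LPS from 3.28 and 3.20, and so was higher in IL-4 than in LPS by 1.91 ± 0.06. Flt1, the receptor gene, lay at 4.24 and 4.23 in IL-4, -2.85 and -2.56 in LPS and -2.88 and -2.24 in control, high in IL-4 alone.

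**Figure D4:**
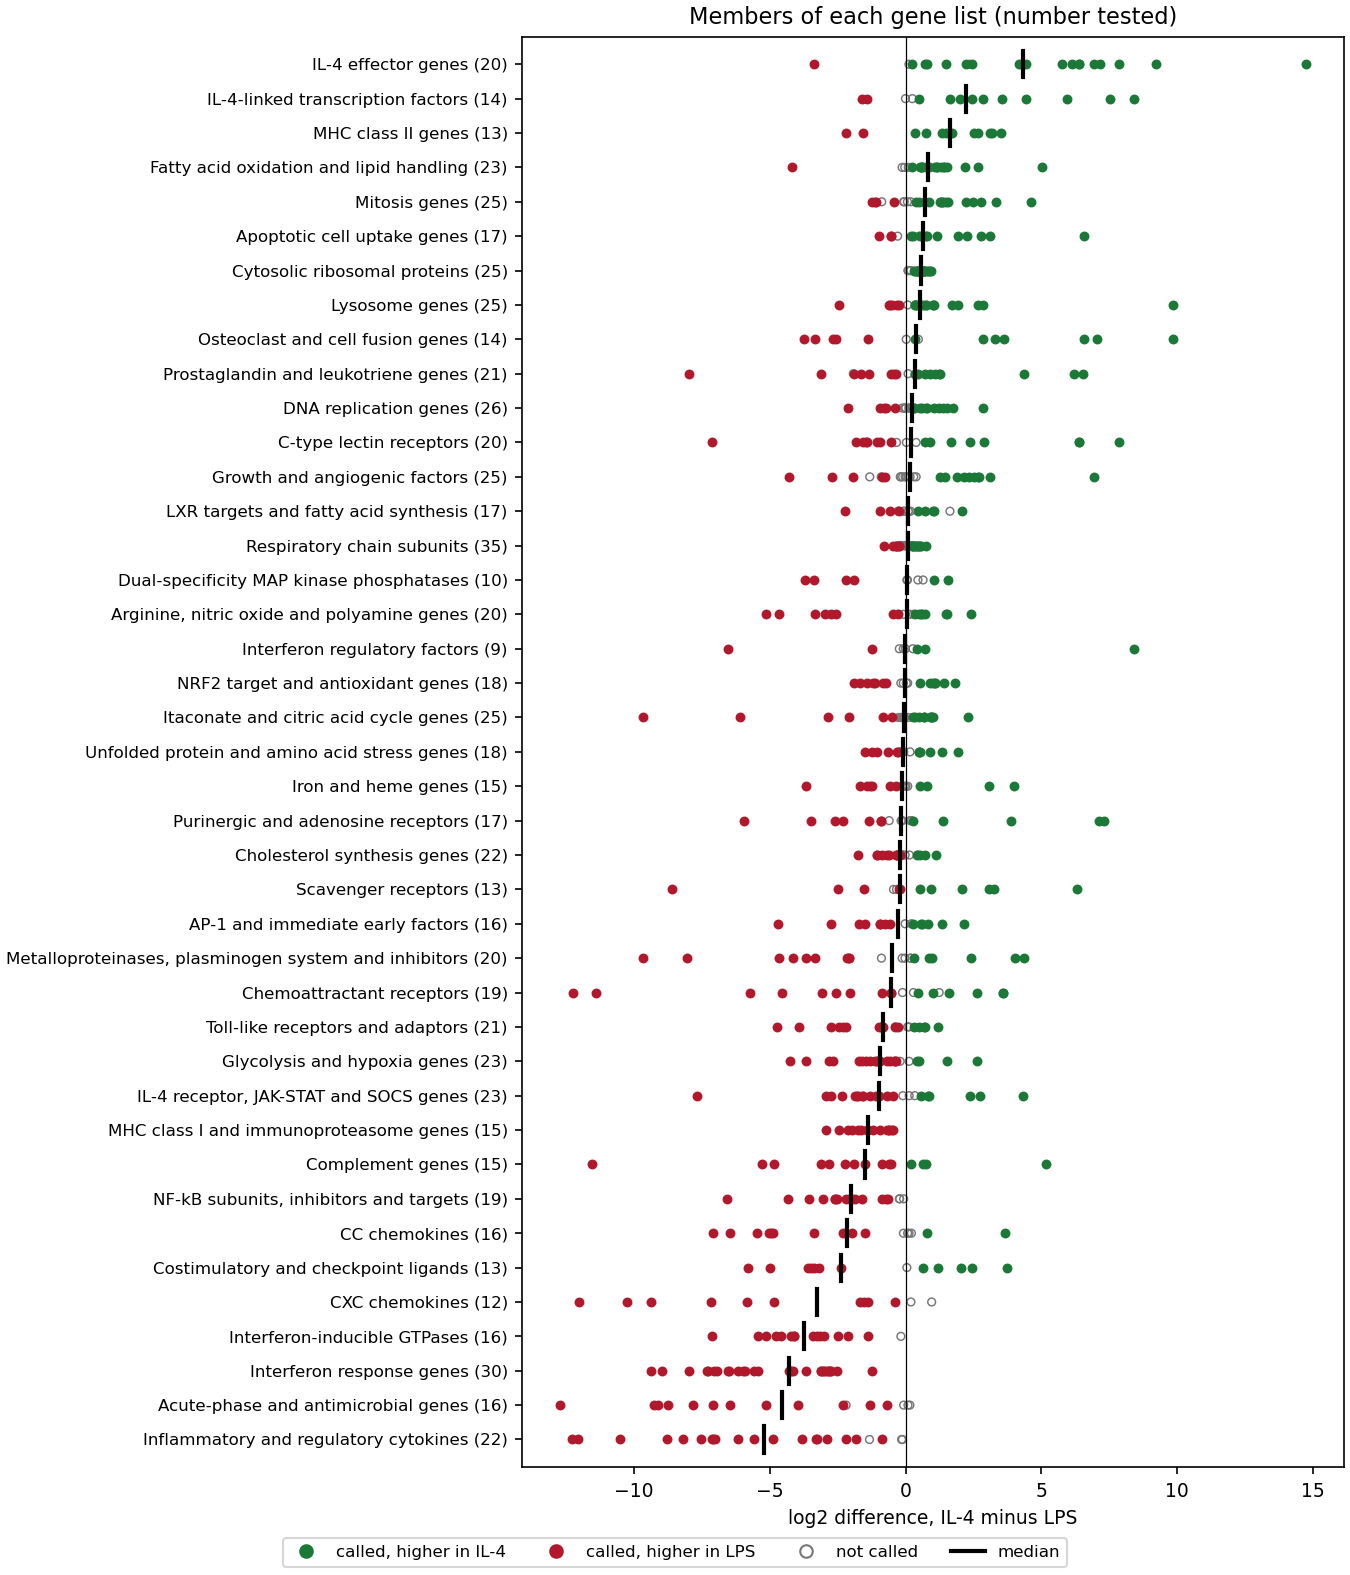
Difference between IL-4 and LPS (log2, 2 arrays per group) of every tested member of the 41 gene lists, ordered by list median (black bars), with genes called higher in IL-4 in green, higher in LPS in red and not called as open grey circles. IL-4 effector genes, their transcription factors and MHC class II genes lie to the right, cytokines, acute-phase and interferon genes to the left, and most metabolic lists near 0; points of genes that are dim with 1 stimulus are fitted values and not bounds.

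Metabolic genes parted the stimuli by smaller steps. Of 23 genes of fatty acid oxidation and lipid handling, 19 were higher in IL-4 and 1 in LPS (18 and 1 without LPS replicate 2, against 25.8% and 26.8% of all genes), with a median 0.88 above the median gene. The fatty acid binding protein gene Fabp4 lay at 5.83 and 5.94 in IL-4, 0.79 and 0.93 in LPS and 4.92 and 4.61 in control (5.03 ± 0.13), the lysosomal lipase gene Lipa differed by 2.66 ± 0.15 and the lipoprotein lipase gene Lpl by 2.20 ± 0.08. Against control, 6 of the 23 were higher and 1 lower in IL-4, and 2 higher and 15 lower in LPS, where 9.87% and 9.18% of all genes were called for IL-4 and 28.9% and 25.8% for LPS. The exception was Acsl1, which activates long-chain fatty acids and was higher in LPS by 4.17 ± 0.09. Glycolysis and hypoxia genes were higher in LPS in 17 of 23 cases (16 without LPS replicate 2) and in IL-4 in 4, with a median 0.88 below the median gene. Pfkfb3, which makes an activator of glycolysis, lay at 5.32 and 5.42 in LPS and 1.63 and 1.74 in IL-4 (-3.68 ± 0.08), the lactate exporter gene Slc16a3 differed by -2.81 ± 0.07 and the oxygen sensor gene Egln3 by -4.26 ± 0.09. The 4 higher in IL-4 were Ndrg1 (2.65 ± 0.07), Pfkp (1.54 ± 0.08), Hk1 (0.50 ± 0.09) and Pdk1 (0.40 ± 0.08).

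In the citric acid cycle list the wide gaps lay at its branches. Acod1, whose enzyme makes itaconate, lay at 8.50 and 8.71 in LPS, -1.07 and -1.07 in IL-4 and -0.25 and -0.18 in control (-9.68 ± 0.11, adjusted p = 5.1e-07, limma), and the dicarboxylate carrier genes Slc13a3 and Slc25a10 differed by -6.10 ± 0.11 and -2.87 ± 0.14. Idh1, for the cytosolic isocitrate dehydrogenase, was higher in IL-4 by 2.30 ± 0.10. Of 25 genes 10 were higher in IL-4 and 6 in LPS. None of 35 respiratory chain subunits differed by 2-fold or more. Of these 11 were called higher in IL-4 and 7 in LPS, shares near those of all genes. The counts became 8 and 2 without LPS replicate 2, 8 and 1 without IL-4 replicate 1, 4 and 2 without IL-4 replicate 2, and 14 and 1 when arrays were centred on their medians. Cholesterol synthesis genes had 4 of 22 higher in IL-4 and 10 in LPS (6 in LPS without LPS replicate 2 or either IL-4 array), led by Hsd17b7 (-1.74 ± 0.09) and Srebf2 (1.12 ± 0.10). Of 25 lysosome genes 17 were higher in IL-4 and 6 in LPS (2 in LPS when centred on medians), against 25.8% and 26.8% of all genes, with the protease gene Ctsk (2.86 ± 0.11) and Lipa behind Atp6v0d2, and with Ctsc, for the activator of granule proteases, higher in LPS by 2.46 ± 0.10. Iron handling genes included the transferrin receptor gene Tfrc, at 4.76 and 4.77 in IL-4, 0.75 and 0.77 in LPS and 1.94 and 2.03 in control (4.001 ± 0.09), and the iron exporter gene Slc40a1, lower than control with both and higher in IL-4 than in LPS by 3.07 ± 0.22. The heme factor gene Spic was higher in LPS by 3.68 ± 0.17 and Hmox1, for heme oxygenase 1, by 1.69 ± 0.13.

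Ribosomal protein and mitosis genes lay mostly higher in IL-4 than in LPS, while replication genes were more divided. Of 25 cytosolic ribosomal protein genes 21 were higher in IL-4 and 0 in LPS, each by less than 2-fold, with a median 0.63 above the median gene. The 21 became 14 to 20 with 1 array left out, the lowest without IL-4 replicate 2. Rpl10a lay at 7.95 and 7.97 in IL-4, 6.98 and 7.06 in LPS and 7.88 and 7.71 in control (0.94 ± 0.08). None of the 25 was called between IL-4 and control by limma, 3 were at an unadjusted p under 0.05, and 19 were lower in LPS than in control, where 25.8% of all genes were. Of 25 mitosis genes 16 were higher in IL-4 and 4 in LPS (15 and 4 without LPS replicate 2, against 25.8% and 26.8% of all genes). Cenpa, for the centromeric histone, lay at 2.69 and 2.72 in IL-4, -1.80 and -2.004 in LPS and 2.96 and 2.67 in control (4.61 ± 0.12), and the cyclin gene Ccna2 differed by 2.50 ± 0.17. The 4 higher in LPS were Mki67 (-1.23 ± 0.09), Ube2c, Tpx2 and Aurka, and Top2a was not called (0.19 ± 0.13), so markers of division did not point 1 way. Of 26 replication genes 12 were higher in IL-4, 5 in LPS and 9 were not called. Rrm2, for a ribonucleotide reductase subunit, lay at 2.87 ± 0.12 and Tyms, for thymidylate synthase, at -2.13 ± 0.09. Against control, 1 mitosis gene was higher and 1 lower in IL-4, and 4 were higher and 17 lower in LPS. For replication genes these counts were 5 and 2 in IL-4, and 6 and 12 in LPS. Of all genes, 9.87% and 9.18% were called in those directions for IL-4, and 28.9% and 25.8% for LPS.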

How the data were processed

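RNA of 8 samples was measured on 1-colour arrays with Cy3 label. The scanner files hold spot signals as intensity, the output, per the file headers, of Feature Extraction 10.7.3.1 from Agilent, with background subtracted and no scaling between arrays. Other columns, 0 or 1 per spot, hold per the file headers the scanner software's marks (well above background, saturated, uneven, outlying). A value table deposited by the authors is on the log2 scale and differs from the scanner's log2 signal by a constant for each array (Pearson r across 34119 probes at least 0.999964), with column medians of 2.93 and 2.93 for IL-4 and 2.87 and 2.53 for LPS. The nature of that constant is unknown, while the scale and direction were read from this match. The submitters' processing notes name Partek 6.4 and RMA but not what each was used for. All arrays were entered as 1 slide and 1 scan, a value set in advance and not compared between the file headers.

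Uneven and outlying spots were left out, the 75th percentile of each array's log2 signal was subtracted and spots of a probe were averaged. Probes well above background on both arrays of a group were kept (39411), and a gene took the values of its brightest probe, giving 26504 genes, 37 of them without a value on at least 1 array. Symbols were updated through RefSeq for 31220 of 55681 probes. limma 3.58.1 (R 4.3.3) compared the groups in 1 model over 8 arrays and 4 group means. The model had 4 residual and 1.57 prior degrees of freedom, with Benjamini-Hochberg adjustment over all genes. It was tested on simulated data of 26467 genes, in which 100 changed 2-fold and 100 changed 4-fold. Of these 62% and 86% were recovered. In the data 52.6% of genes were called, so these shares need not hold for this comparison. With 2 arrays on each side the smallest two-sided p of an exact permutation test is 0.333. Calls therefore rest on the limma model, with variances pooled over all 4 groups and in part shared across genes. The number of arrays limits the precision. Alternatives were normexp, quantile normalization, median centring, the deposited table, other filters and probe rules, other variance models and arrays left out singly.

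Named genes are the 12 most different in each direction among called genes well above background on all 4 arrays, the 8 with the largest bounds in each direction among those seen with 1 stimulus, up to 4 called members with the largest differences of each of 41 lists, and a panel of 22, in all 181 genes; not all are described. The genes, lists and tests were chosen with earlier results of these data known. Probes of close paralogs can bind RNA of more than 1 gene. RefSeq promoters (GRCm38.p6) matched 135 of the 181 named genes. Results on some genes are not reported here.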

Additional observations from a re-analysis of the deposited data

How the results depend on the processing

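The number of arrays and the signal over background set the limits of these results. Of 181 named genes, 173 kept their direction and their side of the threshold under every alternative that gave a value, and Fosl2 alone reversed, to -0.052 with the mean of its passing probes. Called genes numbered 10503 to 15236 over the alternatives, against 13948, and 13161 with the replicate block. The labels do not tell if replicate numbers pair samples across groups. Deviations from group means had correlations of -0.16 to 0.05 between groups, which cannot settle it. At 2-fold or more, 3584 genes were called with normexp against 5701. The share of calls higher in IL-4 was 53.6% with normexp, 57.2% with quantile normalization, 63.8% with median centring, 66.1% in the deposited table and 50.4% with genes well above background on all 4 arrays, and 39.6% to 50.9% with 1 array left out. The lowest of these was without LPS replicate 1. Leaving out 1 array gave 360 to 657 genes seen only in IL-4 and 855 to 1149 seen only in LPS, against 333 and 761. The list medians in this paragraph are not relative to the median of all genes, so they also move with the scaling of the arrays. Of 41 such medians, 28 kept their sign in every setting. Among the others the median of prostaglandin genes was -0.045 without LPS replicate 1 and up to 0.419 without LPS replicate 2, of C-type lectins -0.43 with the filter on all 4 arrays, of scavenger receptors 0.36 with quantile normalization and -0.228 to 0.373 with 1 array left out, the highest without LPS replicate 2, of iron genes 0.090 in the deposited table, and of stress genes 0.10 with median centring and 0.11 in the deposited table. Relative to the median gene, the prostaglandin median without LPS replicate 1 was 0.124. With normexp the medians of costimulatory ligands, CXC chemokines and acute-phase genes were -0.41, -1.96 and -3.30 in place of -2.37, -3.28 and -4.56. The costimulatory median was -0.94 in the deposited table and, with genes well above background on all 4 arrays, 0.047. Under that filter the metalloproteinase median went from -0.51 to 0.18, that of the dual-specificity phosphatases from 0.057 to -0.93, and 10 cytokine genes were higher in LPS in place of 19, since genes dim with a stimulus were not tested. The causes were not tested.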

Other observations

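Further gene lists held members called in each direction, and their counts are to be read against the 25.8% of all genes higher in IL-4 and the 26.8% higher in LPS. Of 14 osteoclast and cell fusion genes, 7 were higher in IL-4 and 5 in LPS. Beside Atp6v0d2 and Dcstamp, the fusion gene Ocstamp lay at 1.85 and 1.92 in IL-4, -1.58 and -1.86 in LPS and -2.01 and -2.08 in control (3.61 ± 0.11), while Acp5, for tartrate-resistant acid phosphatase, was higher in LPS by 2.57 ± 0.09, at 5.94 and 6.04 against 3.37 and 3.48, and the calcitonin receptor gene Calcr was at least 6.13-fold higher in LPS. The list thus divided, and with the 12 members well above background on all 4 arrays 8 were higher in IL-4 and 3 in LPS. Of 17 purinergic and adenosine receptor genes 5 were higher in IL-4 and 7 in LPS, the first near the share of all genes. P2ry1 lay at 2.60 and 2.63 in IL-4, -4.34 and -4.70 in LPS and 0.84 and 0.78 in control, and Entpd1 (CD39), which degrades ATP, was higher in IL-4 by 3.89 ± 0.08. The adenosine receptor gene Adora2a lay at 2.10 and 1.07 in LPS and -4.19 and -4.56 in IL-4 (-5.96 ± 0.47).

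Of 16 AP-1 and immediate early factors, 6 were higher in IL-4 and 8 in LPS. Batf lay at 5.78 and 5.83 in LPS and 1.07 and 1.16 in IL-4 (-4.69 ± 0.09), whereas its relative Batf3 was higher in IL-4. The probe that represents Fosl2 gave 2.16 and another of its probes -2.27, so that gene has no settled direction. Of 5305 genes with several passing probes, 233 (4.39%) had probes called in opposite directions. Of 10 dual-specificity phosphatase genes, which switch off MAP kinases, 2 were higher in IL-4 and 4 in LPS, among them Dusp2 (-3.70 ± 0.09), Dusp16 (-3.37 ± 0.08), Dusp1 (-2.20 ± 0.14) and Dusp6 (-1.91 ± 0.11). Of 9 interferon regulatory factors 3 were higher in IL-4 and 2 in LPS. LXR targets and fatty acid synthesis genes had 5 of 17 higher in IL-4 and 4 in LPS, near the shares of all genes and 8 in IL-4 in the deposited table, with the sterol exporter gene Abcg1 at 2.07 ± 0.08 and the receptor gene Nr1h3 (LXR alpha) itself at -2.23 ± 0.08. Of 18 antioxidant genes 7 were higher in IL-4 and 7 in LPS, with Cat, for catalase, at 1.83 ± 0.10 and the cystine transporter gene Slc7a11 at -1.88 ± 0.20. Of 18 stress genes 6 lay each way, not far from the shares of all genes, with Psat1, of serine synthesis, at 1.92 ± 0.10 and Ero1a, an oxidase of the endoplasmic reticulum, at -1.50 ± 0.08. Of 15 iron genes 4 were higher in IL-4 and 7 in LPS.

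Long intergenic RNA probes made up 3897 of the genes tested. Of these 41.6% were called, 708 higher in IL-4 and 913 in LPS, against 54.5% of the other genes. At 4-fold or more 59 were higher in IL-4 and 157 in LPS. Of all 26504 genes, 913 (3.44%) and 1380 (5.21%) were so, larger shares in each direction than among these RNAs. Among the 761 genes seen only in LPS 101 were such RNAs, and among the 333 seen only in IL-4 there were 20. Each share was below that of such RNAs among the genes tested, 3897 of 26504. The share among dim genes was not compared at matched signal.

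Markers of further cell types were tested only with a probe well above background on both arrays of some group, which favours high counts. Those listed outnumbered those tested for T cells (7 against 3), B cells (6 against 4), NK cells (5 against 2) and erythroid cells (5 against 3). The same held for dendritic cells (8 against 6), monocytes (5 against 4) and endothelium (6 against 5). Tested markers were well above background on both arrays of IL-4 and of LPS in these numbers. Monocyte markers were so in 4 and 4 of 4 tested, dendritic cell markers in 5 and 4 of 6, eosinophil markers in 4 and 4 of 5, mast cell and basophil markers in 2 and 2 of 9, T cell markers in 3 and 3 of 3, B cell markers in 4 and 4 of 4, NK cell markers in 2 and 2 of 2, erythroid markers in 1 and 1 of 3, megakaryocyte markers in 4 and 5 of 5, and endothelial markers in 4 and 4 of 5. Their part in the results was not tested.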
